A study of Homo sapiens with 12 samples.

Results

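The 9 genes described here encode actins and proteins that bind or move actin filaments. They are the cytoplasmic actins ACTB and ACTG1, the smooth-muscle actins ACTA2 and ACTG2, the filament-binding proteins TAGLN and CNN1, the myosin light chain MYL9, and the tropomyosins TPM1 and TPM2. They were chosen by gene name from the 57773 genes counted in each library, and all 9 were among the 21518 genes abundant enough to be tested. Earlier results of these libraries were known when the list was drawn up. The tests below therefore set each change against the spread between libraries and give no independent support for a direction.

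The mRNA of WI-38 fibroblasts was sequenced in bulk. WI-38 is a line of normal human diploid lung cells, and 4 groups of 3 libraries each were made. All cells received a pool of siRNAs at 25 nM, so that the control cells also carried a non-targeting pool (siCtrl). The group siCtrl_Prolif was kept in the vehicle DMSO for 8 days and proliferated. The group siCtrl_Sen spent the same time in 50 µM etoposide, a topoisomerase II poison that damages DNA and drives the cells into senescence, a lasting growth arrest. The groups siNTRK2_Sen and siBDNF_Sen were exposed to etoposide likewise after transfection with pools against NTRK2, which encodes the receptor TrkB, or against its ligand BDNF. The silenced groups address what this ligand and its receptor sustain in senescent fibroblasts, and the study used ACTB mRNA as the reference of its RT-qPCR measurements. There was no proliferating group with either silencing.

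Actin monomers polymerize into filaments, and in fibroblasts the filaments are bundled into stress fibers. Tropomyosins wind along the filaments and govern which proteins reach them, calponin and transgelin bind along their length, and non-muscle myosin II pulls on them when its regulatory light chain is phosphorylated. Many of these genes are transcribed under serum response factor (SRF), which binds the CArG box and whose coactivators, the MRTF proteins, are held in the cytoplasm by free actin monomers.

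The promoters are shown because the CArG box is the sequence through which SRF acts on actin genes. RefSeq promoters, from 250 bases before to 50 bases after the start on GRCh38.p14, were present in the table used for 6 of the 9 genes, namely ACTG1, ACTA2, ACTG2, CNN1, TPM1 and TPM2. A box of 10 bases, 2 C, then 6 A or T, then 2 G, reads the same on both strands. In the stretches below, each written in the direction of transcription, capitals mark boxes that match in full or depart at 1 base.
ACTG1, chr17:81512872-81512905, minus strand: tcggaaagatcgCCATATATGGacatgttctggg
ACTA2, chr10:88952823-88952906, minus strand: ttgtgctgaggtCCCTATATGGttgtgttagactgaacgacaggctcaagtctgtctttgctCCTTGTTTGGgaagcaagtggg
ACTG2, chr2:73892886-73892956, plus strand: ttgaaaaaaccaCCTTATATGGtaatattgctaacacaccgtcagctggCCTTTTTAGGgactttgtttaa

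The box of ACTG1 began 94 bases before the start and matched in full. Both boxes of ACTG2, at 110 and 73 bases, matched in full, and another with 1 departure began at 239 bases. The boxes of ACTA2, at 121 and 71 bases, each departed at 1 base. No box was found in the windows of CNN1, TPM1 and TPM2, nor at the other ACTA2 start. Of all 35116 promoters in the table, 1.29% held a full box and 18.9% held a box with at most 1 departure, so a full box was uncommon and the looser form was not.

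Library totals ranged from 31567912 to 72328151 counts, and 3 counts corresponded to 0.0427 to 0.0915 CPM (counts scaled to a common library total), far below the level of any of the 9 genes. Levels are given as CPM normalized with TMM factors, which correct library totals for composition. NTRK2 had 0 counts in all 3 siNTRK2_Sen libraries and only 7 to 15 counts in siCtrl_Sen, and BDNF was at 44.3 to 48.9 CPM in siBDNF_Sen against 157 to 169 CPM in siCtrl_Sen. BDNF was not called between siCtrl_Sen and siCtrl_Prolif (log2 fold change 0.04, adjusted p = 0.508 in edgeR). With siNTRK2 it was at 203 to 206 CPM, above siCtrl_Sen (log2 fold change 0.33, adjusted p = 8.35e-06). BDNF thus differed by 2.12 in log2 between siNTRK2_Sen and siBDNF_Sen. CDKN1A, which encodes the cell-cycle inhibitor p21, was at 2772 to 2960 CPM in siCtrl_Sen and 913 to 966 CPM in siCtrl_Prolif. It was at 1954 to 2086 CPM in siNTRK2_Sen, a log2 fold change of -0.50 (adjusted p = 2.8e-09). MKI67, a proliferation marker, was at 15.8 to 16.9 CPM in siCtrl_Prolif and 0.813 to 1.64 CPM in siCtrl_Sen, and it was higher than in siCtrl_Sen with siNTRK2 (3.85 to 4.36 CPM, log2 fold change 1.72, adjusted p = 4.33e-08) and with siBDNF (1.95 to 2.79 CPM, log2 fold change 0.91, adjusted p = 0.000554). What these shifts of BDNF, CDKN1A and MKI67 contribute to the siRNA results below was not tested. The labels do not say whether the libraries of a group came from separate cultures, so that p-values measure the spread between these libraries only. The 9 fibroblast markers summed to 23197 to 34085 CPM in every library. The 8 smooth-muscle markers summed to 428 to 609 CPM, and 2 of them, ACTG2 and CNN1, are among the genes described here. Group means were 92.9 to 182.5 CPM for SMTN, 21.5 to 54.6 CPM for LMOD1 and 10.5 to 18.1 CPM for SYNM. They were lower for MYOCD (3.15 to 6.91 CPM), MYH11 (3.74 to 5.27 CPM) and DES (0.41 to 0.931 CPM). The 8 striated-muscle markers summed to at most 2.56 CPM, the 4 epithelial markers to at most 1.48 CPM and the 3 matched endothelial markers to at most 3.14 CPM, and the endothelial marker CDH5 was at 0 in siCtrl_Prolif. Of the 4 immune markers, CD68, a lysosomal protein also made outside the immune system, moved with senescence and with the siRNAs, from a mean of 53.0 CPM in siCtrl_Prolif to 109 CPM in siCtrl_Sen (log2 fold change 1.05, adjusted p = 2.68e-15), 77.5 CPM in siNTRK2_Sen and 180 CPM in siBDNF_Sen. PTPRC was at 0 in siCtrl_Prolif and at a mean of 0.943 CPM in siCtrl_Sen (adjusted p = 9.48e-10), and at most 0.9998 CPM in the silenced groups. The endothelial markers VWF (0.764 to 1.859 CPM, adjusted p = 0.000206) and KDR (0.0698 to 0.273 CPM, adjusted p = 0.0314) were also higher in siCtrl_Sen than in siCtrl_Prolif. The part of any of these markers in the results below was not tested. In bulk RNA, a gene expressed in fewer cells and a gene expressed less in each cell cannot be told apart.

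Together the 9 genes held a mean of 2.02% ± 0.0695 (SD, n = 3) of all counts in siCtrl_Prolif, 1.502% ± 0.0705 in siCtrl_Sen, 1.38% ± 0.0366 in siNTRK2_Sen and 1.26% ± 0.0288 in siBDNF_Sen. The libraries of siCtrl_Prolif lay above all others, and those of siBDNF_Sen below all others. ACTB and ACTG1 alone made up 1.46% of counts in siCtrl_Prolif and 0.852% in siBDNF_Sen. These shares rest on the deposited counts divided by the library totals, with no correction for composition.

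**Figure D1:**
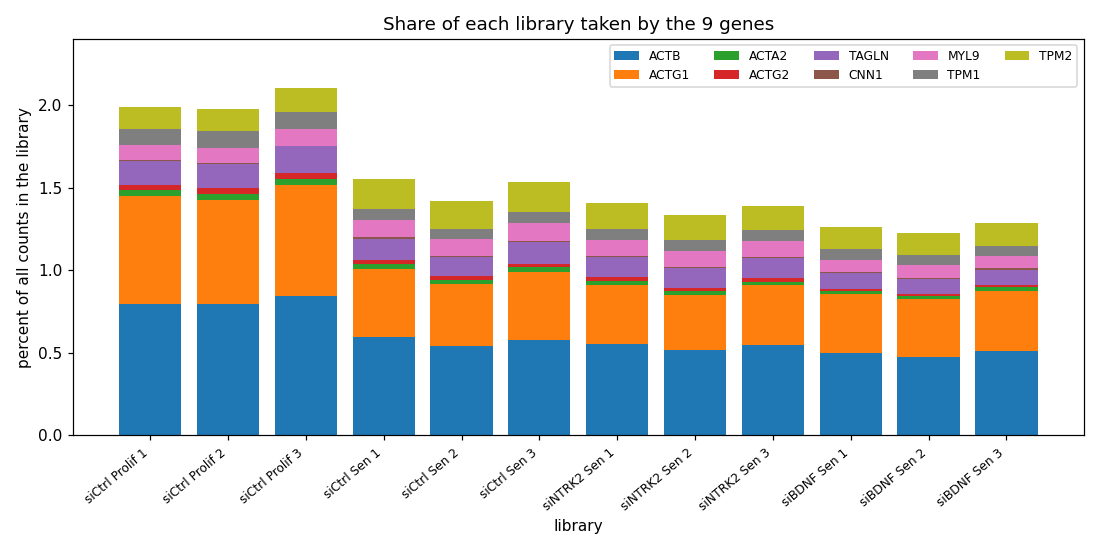
Percent of all counts in each of the 12 libraries taken by the 9 genes, stacked by gene, with the libraries ordered by group. ACTB and ACTG1 make up most of every bar, and the group mean of the whole bar falls from 2.02% in siCtrl_Prolif to 1.26% in siBDNF_Sen.

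Divided by transcript length, only the place of CNN1 was settled in every group. With the canonical transcripts, ACTB was highest in each group (means of 4626 CPM per kb in siCtrl_Prolif and 3173 CPM per kb in siCtrl_Sen), followed by ACTG1, TPM2 and TPM1, and CNN1 was lowest (34.0 and 55.7 CPM per kb). CNN1 stayed lowest in all 4 groups at every length of its annotated protein-coding transcripts of at least 1000 bases. The places of the others depended on the transcript in at least 1 group. Over the annotated lengths in siCtrl_Prolif, ACTB spanned 3282 to 8308 CPM per kb and overlapped ACTG1 at 2703 to 5969, TAGLN spanned 410 to 1482 and overlapped TPM2 at 1189 to 1390, MYL9 spanned 345 to 937 and TPM1 270 to 973, and ACTA2 at 224 to 281 overlapped ACTG2 at 167 to 244. In siCtrl_Sen, TPM2 at 1515 to 1771 CPM per kb overlapped ACTG1 at 1613 to 3562.5. The striated-muscle actins were almost absent, with at most 20 counts of ACTA1 and 50 counts of ACTC1 in any library.

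The comparison of siCtrl_Sen with siCtrl_Prolif is called senescence here. These groups differ in exposure to etoposide as well as in growth arrest, and the parts of these cannot be told apart. In it 6 of the 9 fell (ACTB, ACTG1, ACTA2, ACTG2, TAGLN and TPM1) and 3 rose (CNN1, MYL9 and TPM2), at an adjusted p under 0.05 in edgeR's quasi-likelihood test. Over all tested genes, 28.3% were called lower and 29.8% higher. The median log2 fold change was -0.40 for the 9 genes and 0.02 for all tested genes, and for 8 of the 9 the libraries of the groups did not overlap, as for 61.3% of all tested genes. Relative to ACTB, in place of TMM, ACTA2 and TAGLN were on the other side of 0.

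With siNTRK2 in senescent cells, 5 of the 9 fell (ACTG1, ACTA2, CNN1, MYL9 and TPM2) and 0 rose, beside 10.0% of all genes called lower and 11.1% called higher. The count of 0 was the same in DESeq2 and at an unadjusted p under 0.05, while 7 genes were lower at an unadjusted p under 0.05 in both tools. The median log2 fold change of the 9 genes was -0.14, and that of all tested genes was -0.0024. For 5 of the 9 the libraries did not overlap, as for 32.8% of all tested genes. The siCtrl_Sen library 2 was the lowest of its group for all 9 genes, and without it 7 genes were called lower, ACTB and ACTG2 being added.

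With siBDNF in senescent cells all 9 fell and 0 rose, in edgeR and in DESeq2, with or without adjustment, beside 10.2% of all genes called lower and 10.3% called higher. The median log2 fold change was -0.45 for the 9 genes and 0.0039 for all tested genes, and the libraries did not overlap for 9 of the 9, as for 37.3% of all tested genes. Relative to ACTB 5 of the other 8 were called lower, and ACTG1, CNN1 and TPM1 had positive values that did not pass the test. Both siRNA comparisons and the senescence comparison share the siCtrl_Sen libraries.

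None of the 9 genes passed the study's stricter threshold, an adjusted p under 0.05 with an absolute log2 fold change over 1, in any comparison, at an unadjusted p either, in edgeR or in DESeq2. Over all tested genes 16.7% passed it in senescence, 0.957% with siNTRK2, 0.609% with siBDNF and 1.16% between the silencings. The fitted log2 fold changes of the 9 ran from -0.74 to 0.71 in senescence, from -0.31 to 0.03 with siNTRK2 and from -0.78 to -0.13 with siBDNF.

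**Figure D2:**
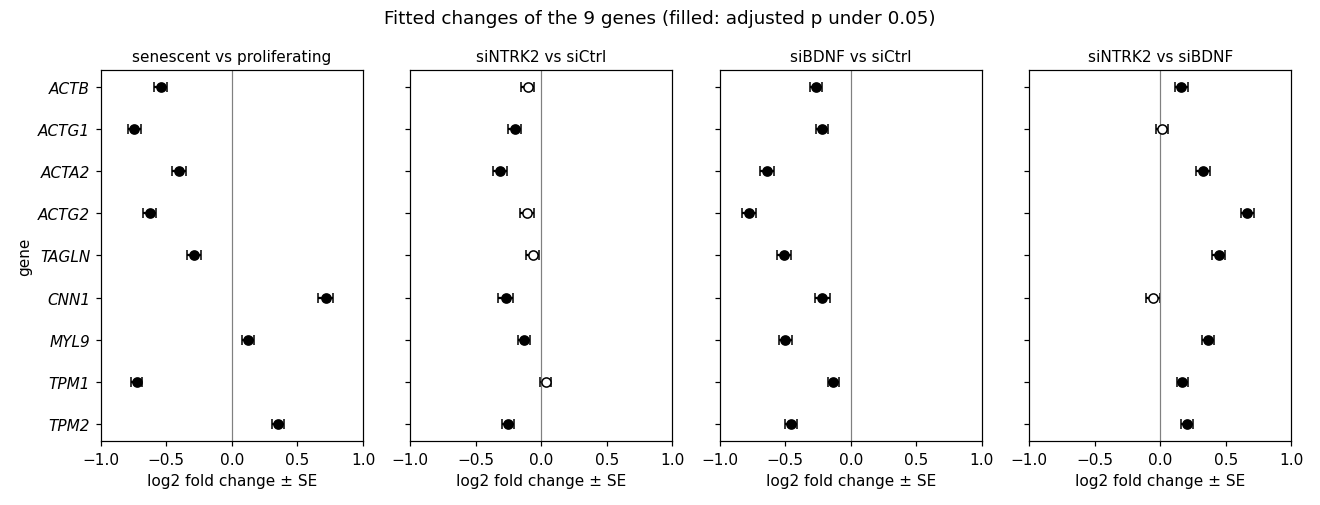
Fitted log2 fold change of each of the 9 genes in the 4 comparisons, with the standard error as a bar, from edgeR on 12 libraries; filled points have an adjusted p under 0.05. All 9 points are filled and left of 0 with siBDNF, 5 of 9 are filled with siNTRK2, and in senescence the values run from -0.74 to 0.71.

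ACTB encodes β-actin and had the most counts of the 9. Its level was 8106, 8179 and 8864 CPM in the siCtrl_Prolif libraries and 6009, 5368 and 5874 CPM in those of siCtrl_Sen. It was 5509, 5114 and 5432 CPM in siNTRK2_Sen and 4806, 4563 and 4996 CPM in siBDNF_Sen. The proliferating libraries were all higher than the senescent ones, siNTRK2_Sen overlapped siCtrl_Sen, and siBDNF_Sen lay below both. The log2 fold change was -0.54 ± 0.048 (SE) in senescence, so that the level fell by 31.4% (adjusted p = 4.9e-10). With siBDNF it was -0.26 ± 0.048 (adjusted p = 0.000276). With siNTRK2 it was -0.10 and was not called (adjusted p = 0.134). The 95% interval, from -0.20 to -0.01, lay below 0 but is not adjusted for the number of genes tested. Without siCtrl_Sen library 2 the log2 fold change was -0.14 and passed the test (adjusted p = 0.0249).

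ACTG1 encodes γ-actin, the other cytoplasmic form, whose protein differs from β-actin at only a few residues. It stood at 6632, 6523 and 7042.5 CPM in siCtrl_Prolif and at 4206, 3709 and 4141 CPM in siCtrl_Sen. It stood at 3569.5, 3332 and 3563 CPM in siNTRK2_Sen and at 3441, 3366.5 and 3562.5 CPM in siBDNF_Sen. Every library with silencing was below every siCtrl_Sen library, and the siNTRK2_Sen and siBDNF_Sen libraries overlapped. Its fall in senescence was the deepest of the 9 (log2 fold change -0.74 ± 0.0473, a drop to 0.597 of the proliferating level, adjusted p = 8.86e-13). The falls were -0.20 ± 0.0471 with siNTRK2 (adjusted p = 0.00269) and -0.22 ± 0.0471 with siBDNF (adjusted p = 0.00154).

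For each 100 counts of ACTB there were 79.5 to 81.8 counts of ACTG1 in siCtrl_Prolif, 69.1 to 70.5 in siCtrl_Sen, 64.8 to 65.6 in siNTRK2_Sen and 71.3 to 73.8 in siBDNF_Sen. This ratio, free of any library scaling, separated all 4 groups with no overlap. ACTG1 thus made up less of the cytoplasmic actin counts in senescent cells, least of all with siNTRK2.

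**Figure D3:**
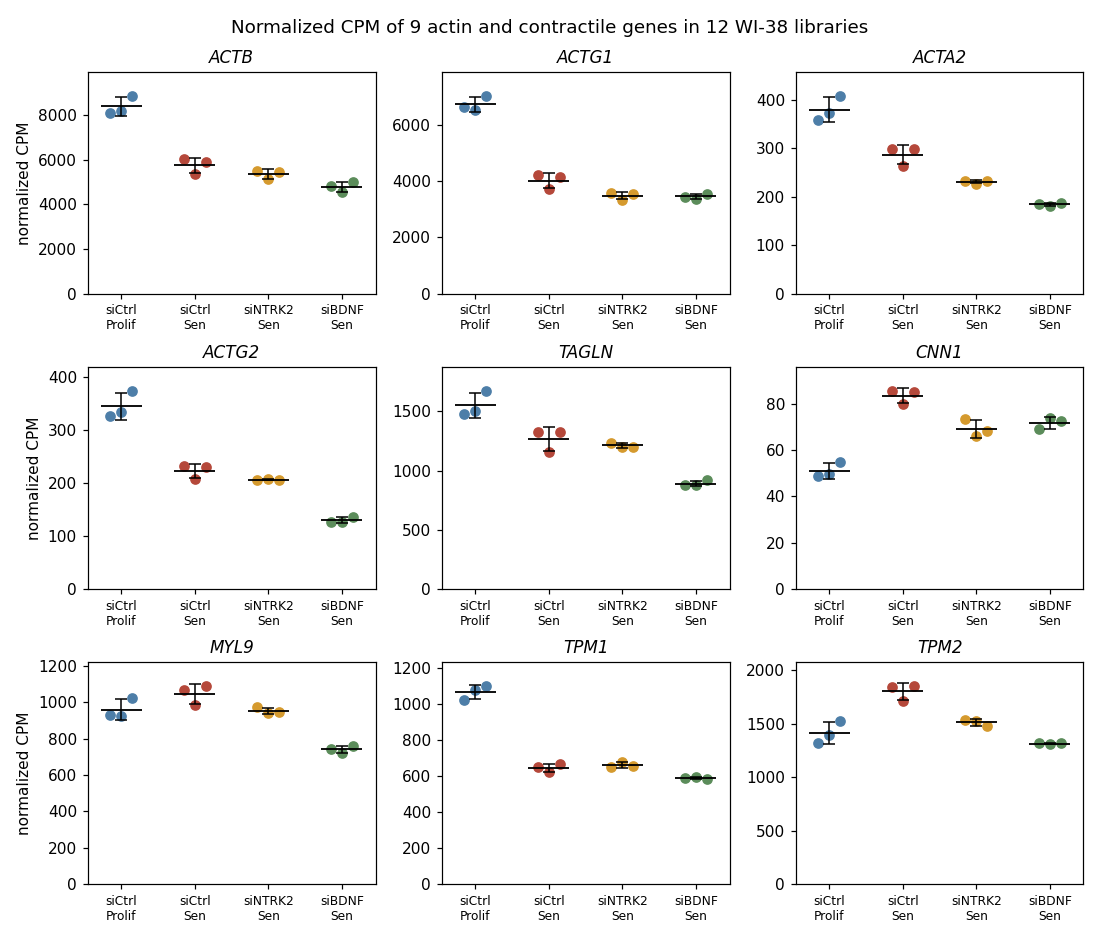
Normalized CPM of each of the 9 genes in the 12 libraries on linear axes that start at 0; points are libraries, the horizontal line is the group mean and the bar its SD (n = 3). ACTB, ACTG1, ACTA2, ACTG2, TAGLN and TPM1 are highest in siCtrl_Prolif, while CNN1, MYL9 and TPM2 are highest in siCtrl_Sen.

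ACTA2 encodes smooth-muscle α-actin, which marks fibroblasts that have turned into contractile myofibroblasts. It measured 357, 372 and 408 CPM in siCtrl_Prolif and 297, 264 and 299 CPM in siCtrl_Sen. It measured 232, 227 and 233 CPM in siNTRK2_Sen and 185, 180 and 187 CPM in siBDNF_Sen. The 4 groups formed 4 steps with no overlap, and neighbouring steps each passed the test. The log2 fold changes were -0.40 ± 0.0513 in senescence (adjusted p = 2.64e-07), -0.31 ± 0.0515 with siNTRK2 (adjusted p = 7.6e-05) and -0.64 ± 0.0518 with siBDNF (adjusted p = 3.03e-09). The siNTRK2 change was the deepest of the 9 genes in that comparison. Scaled to ACTB, the senescence change was 0.14 (adjusted p = 0.0177).

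ACTG2 encodes the γ-actin of enteric smooth muscle. It was at 326, 333 and 374 CPM in siCtrl_Prolif and at 231, 208 and 230 CPM in siCtrl_Sen. It was at 205, 208 and 205 CPM in siNTRK2_Sen and at 127, 127 and 136 CPM in siBDNF_Sen. The siNTRK2_Sen libraries reached the level of the lowest siCtrl_Sen library, and the siBDNF_Sen libraries were far below both. Its log2 fold change was -0.63 ± 0.0519 in senescence (adjusted p = 1.43e-10) and -0.78 ± 0.0526 with siBDNF, the deepest of the 9 (to 0.584 of the siCtrl_Sen level, adjusted p = 1.33e-10). With siNTRK2 it was -0.11 and was not called (adjusted p = 0.135, unadjusted 95% interval from -0.21 to -0.01). The log2 ratio of ACTG2 to ACTA2 counts, -0.14 ± 0.018 (SD) in siCtrl_Prolif and -0.36 ± 0.019 in siCtrl_Sen, was -0.16 ± 0.030 in siNTRK2_Sen and -0.50 ± 0.040 in siBDNF_Sen. The ratio was thus above that of siCtrl_Sen with siNTRK2 and below it with siBDNF, with no overlap of the libraries. Both ACTA2 and ACTG2 carry the boxes printed above.

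TAGLN encodes transgelin (SM22), an actin-binding protein of smooth muscle and stress fibers. Its level was 1483, 1502 and 1674.5 CPM in siCtrl_Prolif and 1328, 1154 and 1328 CPM in siCtrl_Sen. It was 1236, 1201 and 1200.1 CPM in siNTRK2_Sen and 879.5, 874 and 918 CPM in siBDNF_Sen. The siNTRK2_Sen libraries fell within the range of siCtrl_Sen, and those of siBDNF_Sen did not. The log2 fold changes were -0.29 ± 0.052 in senescence (adjusted p = 3.54e-05) and -0.51 ± 0.0521 with siBDNF (adjusted p = 1.1e-07). With siNTRK2 the value was -0.07 (adjusted p = 0.408, 95% interval from -0.17 to 0.04). Scaled to ACTB, the senescence change was 0.25 (adjusted p = 4.26e-05).

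CNN1 encodes calponin, which binds actin filaments and restrains the myosin motor. It was the least abundant of the 9 and rose most in senescence. The libraries of siCtrl_Prolif had 48.7, 49.5 and 54.9 CPM and those of siCtrl_Sen 85.6, 80.0 and 85.1 CPM. Those of siNTRK2_Sen had 73.3, 66.1 and 68.1 CPM and those of siBDNF_Sen 69.0, 73.9 and 72.6 CPM. Both silenced groups lay between proliferating and senescent controls and overlapped each other. The log2 fold change was 0.71 ± 0.0553 in senescence, a rise of 64.1% (adjusted p = 4.07e-11). It was -0.27 ± 0.0545 with siNTRK2 (adjusted p = 0.000714) and -0.22 ± 0.0545 with siBDNF (adjusted p = 0.00538), though the latter was 0.05 (adjusted p = 0.588) relative to ACTB. The log2 ratio of TAGLN to CNN1 counts went from 4.93 ± 0.005 in siCtrl_Prolif to 3.92 ± 0.064 in siCtrl_Sen, so that 2 genes often used together as contractile markers parted in senescence.

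MYL9 encodes a regulatory light chain of myosin II, the site at which kinases switch the motor on. It stood at 930, 924 and 1026 CPM in siCtrl_Prolif and at 1068, 983 and 1089.5 CPM in siCtrl_Sen. It stood at 971, 939 and 949 CPM in siNTRK2_Sen and at 741, 722.5 and 759 CPM in siBDNF_Sen. The siCtrl_Prolif and siCtrl_Sen libraries overlapped, and only siBDNF_Sen stood clearly apart. The fall with siBDNF was -0.50 ± 0.0469 in log2 (to 0.708 of the siCtrl_Sen level, adjusted p = 2.88e-08). The rise in senescence was 0.13 ± 0.0467 (adjusted p = 0.0244), and it failed the test without siCtrl_Prolif library 1 or 2, or without siCtrl_Sen library 1 or 3, with log2 fold changes of 0.08 to 0.11. The fall with siNTRK2, -0.14 ± 0.0467 (adjusted p = 0.0408), likewise failed without siCtrl_Sen library 1 or 3 or siNTRK2_Sen library 2 or 3, at -0.10 to -0.12.

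TPM1 and TPM2 encode tropomyosins found in stress fibers, and their mRNAs went in opposite directions in senescence. TPM1 was at 1024, 1078 and 1099 CPM in siCtrl_Prolif and at 649, 621 and 666 CPM in siCtrl_Sen. It was at 648, 679.7 and 654 CPM in siNTRK2_Sen and at 589, 593 and 584 CPM in siBDNF_Sen. The fall in senescence exceeded every later difference among the senescent groups. Its log2 fold change was -0.73 ± 0.042 (to 0.605 of the proliferating level, adjusted p = 1.45e-13). With siNTRK2 the value was 0.03 (adjusted p = 0.635, 95% interval from -0.05 to 0.12). With siBDNF it was -0.13 ± 0.0419 (adjusted p = 0.0248), with no overlap of the libraries, yet it did not pass without siCtrl_Sen library 1 or 3 or without any 1 of the siBDNF_Sen libraries (-0.11 to -0.13), nor with library totals in place of TMM (-0.08, adjusted p = 0.161). Relative to ACTB it was 0.13 (adjusted p = 0.0667).

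TPM2 was at 1323, 1399 and 1525 CPM in siCtrl_Prolif and at 1844, 1711 and 1855 CPM in siCtrl_Sen. It was at 1537, 1527 and 1476.5 CPM in siNTRK2_Sen and at 1319, 1308 and 1320.0 CPM in siBDNF_Sen. The siNTRK2_Sen libraries overlapped those of siCtrl_Prolif, and those of siBDNF_Sen lay below all of the others. The log2 fold changes were 0.35 ± 0.0468 in senescence (adjusted p = 5.79e-07), -0.25 ± 0.0468 with siNTRK2 (adjusted p = 0.00031) and -0.45 ± 0.0468 with siBDNF (adjusted p = 1.32e-07). The log2 ratio of TPM2 to TPM1 counts was 0.41 ± 0.057 in siCtrl_Prolif, 1.48 ± 0.022 in siCtrl_Sen, 1.196 ± 0.043 in siNTRK2_Sen and 1.16 ± 0.019 in siBDNF_Sen. TPM2 counts thus outnumbered TPM1 counts by more in each senescent group than in proliferating cells.

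Compared directly, siNTRK2_Sen was higher than siBDNF_Sen for 7 of the 9 genes and lower for 0 in edgeR and DESeq2, also unadjusted, beside 8.84% of all genes called higher and 7.86% called lower. The largest differences in log2 were those of ACTG2 (0.67 ± 0.0526, adjusted p = 1.2e-09), TAGLN (0.45 ± 0.0521, adjusted p = 7.33e-07) and MYL9 (0.36 ± 0.0468, adjusted p = 3.11e-06). ACTA2 (0.33), TPM2 (0.20), TPM1 (0.17) and ACTB (0.16) also passed, and for these 7 the libraries did not overlap, as for 34.2% of all tested genes. The call of ACTB (adjusted p = 0.0215) was lost without siNTRK2_Sen library 1 or 3 or siBDNF_Sen library 2. ACTG1 differed by 0.01 (95% interval from -0.08 to 0.11) and CNN1 by -0.06 (95% interval from -0.16 to 0.05).

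As ACTB was the RT-qPCR reference, each gene was also read as counts relative to ACTB counts of the same library. In senescence the log2 ratio rose by 1.26 for CNN1, 0.90 for TPM2, 0.67 for MYL9, 0.25 for TAGLN and 0.14 for ACTA2. It decreased by 0.20 for ACTG1 and by 0.18 for TPM1. For ACTG2 the difference was -0.08 and did not pass the test scaled to ACTB (adjusted p = 0.169). The libraries of the groups did not overlap for any of the 8. The share of all genes without overlap on this ratio was not taken, but scaled to ACTB 13637 of 21518 tested genes were called higher and 1363 lower. With siBDNF the ratio decreased by 0.51 for ACTG2, 0.38 for ACTA2, 0.25 for TAGLN, 0.23 for MYL9 and 0.19 for TPM2. With siNTRK2 2 genes passed the test scaled to ACTB, ACTA2 (-0.21, adjusted p = 0.0069) and TPM2 (-0.15, adjusted p = 0.04). The values of CNN1 (-0.17, adjusted p = 0.0673), ACTG1 (-0.10, adjusted p = 0.0834) and TPM1 (0.14, adjusted p = 0.099) did not pass, although their libraries did not overlap those of siCtrl_Sen. ACTG2, TAGLN and MYL9 overlapped siCtrl_Sen.

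**Figure D4:**
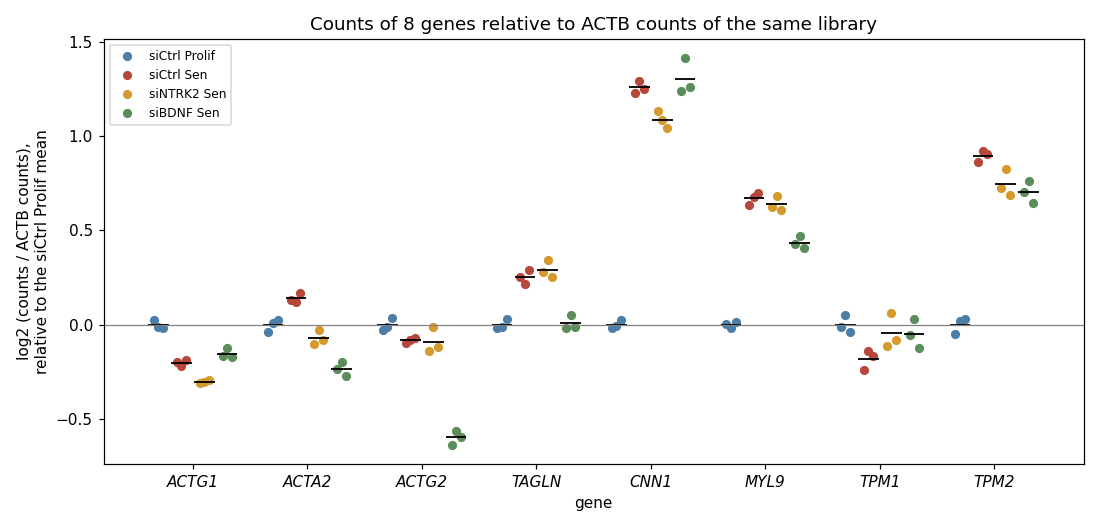
Log2 ratio of the counts of 8 genes to the ACTB counts of the same library, set to 0 at the siCtrl_Prolif mean; points are libraries and lines group means. CNN1, TPM2 and MYL9 stand 1.26, 0.90 and 0.67 above proliferating cells in siCtrl_Sen, and ACTG2 drops by a further 0.51 with siBDNF.

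A scale set by ACTB moved the whole transcriptome: the median log2 fold change of all tested genes became 0.57 in senescence, 0.10 with siNTRK2 and 0.27 with siBDNF. Among 17 common RT-qPCR reference genes ACTB had the 4th lowest change in senescence, where GUSB (-1.03) and HPRT1 (-0.79) were among those below it, and the 2nd lowest with siBDNF, after RPLP0 (-0.29). The range of its 4 group means was 0.808 in log2, the 16th of 17 in order from the steadiest. SDHA, a mitochondrial enzyme subunit, had the narrowest range at 0.119, followed by PGK1 at 0.160 and B2M at 0.195. Of the 16 references other than ACTB, 8 were called lower and 3 higher in senescence (7 higher and 4 lower when scaled to their own geometric mean), with GAPDH, PPIA, SDHA, PGK1 and RPL13A not passing the test. Among all tested genes 28.3% were called lower and 29.8% higher in that comparison. GAPDH, a glycolytic enzyme, was lower with siNTRK2 (-0.40 ± 0.0487, adjusted p = 1.35e-06) and with siBDNF (-0.21 ± 0.0486, adjusted p = 0.00272).

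**Figure D5:**
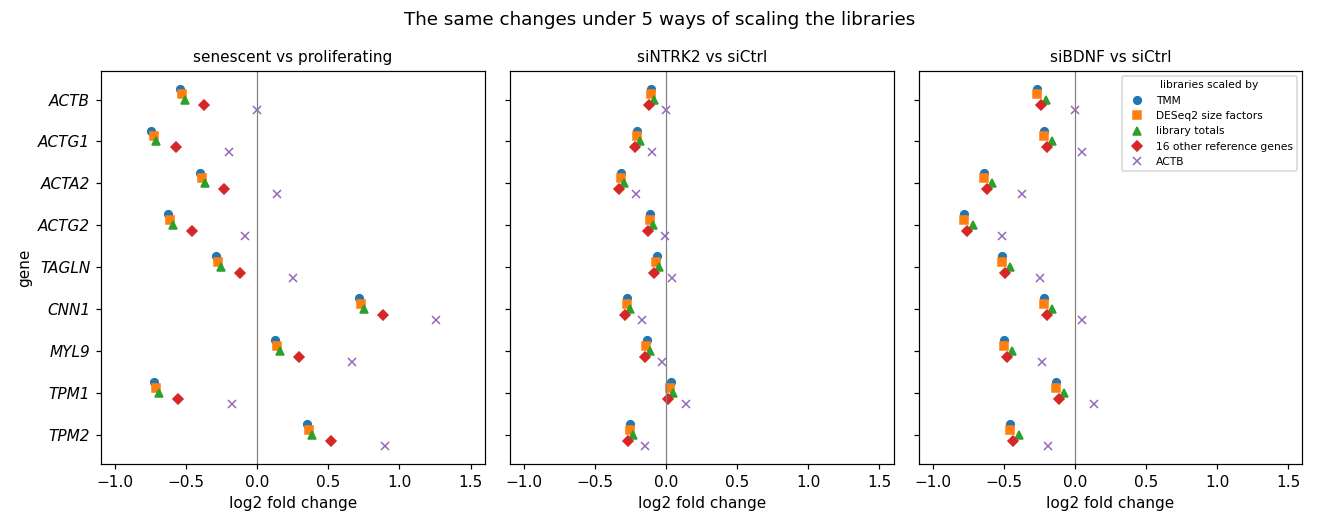
Log2 fold change of the 9 genes in 3 comparisons when libraries are scaled by TMM, DESeq2 size factors, library totals, the 16 other reference genes or ACTB. The first 3 scalings lie close to each other, the other reference genes shift the senescence values up, and scaling to ACTB puts ACTB at 0 by construction and carries ACTA2 and TAGLN to 0.14 and 0.25 in senescence.

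The 16 other reference genes, with the geometric mean of their counts as the scale, moved the median of all tested genes to 0.19 in senescence and left the direction of all 9 genes as it was with TMM in each comparison with siCtrl, ACTB falling by 0.37 in senescence. On that scale ACTB (-0.12, adjusted p = 0.0425) and ACTG2 (-0.13, adjusted p = 0.0483) passed the test with siNTRK2.

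Relatives of the 9 genes did not all go the same way. In senescence 5 of 10 fell and 2 rose (2 fell and 6 rose relative to ACTB). Of all 21518 tested genes 28.3% fell and 29.8% rose. Relative to ACTB 1363 of them fell and 13637 rose, and with the other reference genes 3990 fell and 8710 rose. The same shares apply to the senescence counts of the lists below. CNN2, a calponin of non-muscle cells, fell by 1.17 in log2 from a mean of 786 CPM (adjusted p = 4.94e-16), in contrast to the rise of CNN1. The tropomyosin gene TPM4 fell by 0.98 from 2449 CPM (adjusted p = 5.81e-17), and the transgelin TAGLN2 fell by 0.55 (adjusted p = 2.65e-10). MYL12A, another regulatory light chain, rose by 0.26 (adjusted p = 4.95e-05).

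With siNTRK2, 5 of the 10 relatives rose and 1 fell, whereas 0 of the 9 genes above rose. Of all 21518 tested genes 11.1% rose and 10.0% fell, and relative to ACTB 2877 rose and 618 fell. CALD1, which encodes caldesmon, an inhibitor of actomyosin, rose by 0.43 (adjusted p = 1.97e-07), from 501 CPM in siCtrl_Sen to 677 CPM, against 684 CPM in siCtrl_Prolif. TPM4 rose by 0.24 (adjusted p = 4.78e-05) and CNN3 by 0.20 (adjusted p = 0.000914). With siBDNF 6 relatives fell and 1 rose (0 fell and 3 rose relative to ACTB), among them CNN2 (-0.27, adjusted p = 0.000396) and CNN3 (-0.20, adjusted p = 0.000982). Of all tested genes 10.2% fell and 10.3% rose with siBDNF, and relative to ACTB 203 fell and 8164 rose. These siRNA shares also apply to the lists below.

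Genes of myosin II and its switches fell in senescence for 12 of 14, and 2 rose, with a median of -0.55. When scaled to the other reference genes 8 fell and 2 rose. When scaled to ACTB 3 fell and 6 rose, with a median of -0.0077. The heavy chain MYH10 fell by 1.57 (adjusted p = 1.52e-17), the light-chain kinase MYLK by 0.81 (adjusted p = 9.79e-15) and the heavy chain MYH9 by 0.72 (adjusted p = 2.23e-12). The small GTPase gene RHOC rose by 0.55 (adjusted p = 3.26e-09). The other gene that rose was at 0 CPM in siCtrl_Prolif and at a mean of only 0.286 CPM in siCtrl_Sen. With siNTRK2 6 of the 14 were higher and 2 lower (6 and 0 relative to ACTB). The largest rises were those of MYH9 (0.62 ± 0.0478, adjusted p = 1.21e-09) and the kinases ROCK1 (0.48, adjusted p = 7.98e-06) and ROCK2 (0.46, adjusted p = 8.88e-05). RHOC (-0.22, adjusted p = 0.00472) and CDC42EP3 (-0.15, adjusted p = 0.0107) fell. With siBDNF 3 were higher and 3 lower (8 and 0 relative to ACTB), and MYH9 rose by 0.24 (adjusted p = 0.000689).

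Crosslinkers and adhesion-plaque genes fell for 19 of 25 in senescence and rose for 5 (15 fell and 6 rose with the other reference genes, 5 fell and 12 rose relative to ACTB). TGFB1I1, a focal-adhesion adaptor, fell by 1.33 (adjusted p = 3.4e-17), LPP by 0.99 (adjusted p = 1.12e-12) and CSRP2 by 0.97 (adjusted p = 1.34e-12), whereas the filamin FLNC rose by 0.78 (adjusted p = 3.44e-12). With siNTRK2 8 rose and 5 fell, and with siBDNF 7 rose and 10 fell (12 and 0, and 12 and 2, relative to ACTB). A rise relative to ACTB with siBDNF was common, as 8164 of all 21518 tested genes rose and 203 fell. PDLIM1 (-0.56, adjusted p = 6.86e-09) and palladin, PALLD (-0.46, adjusted p = 8.32e-09), both partners of α-actinin, fell with siBDNF.

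Among 32 genes of filament assembly and turnover, 19 fell and 5 rose in senescence (12 and 12 with the other reference genes, 4 and 23 relative to ACTB). The formin DIAPH3 fell by 1.49 (adjusted p = 4.58e-14), the elongation factor ENAH by 0.76 (adjusted p = 7.36e-13) and the smooth-muscle nucleator LMOD1 by 0.79 (adjusted p = 1.35e-10). With siNTRK2 3 of the 32 were called lower and 4 higher, shares near the 10.0% and 11.1% over all tested genes (0 lower and 7 higher relative to ACTB). With siBDNF 10 were lower and 2 higher (1 and 21 relative to ACTB), including LMOD1 (-0.56, adjusted p = 1.41e-06) and thymosin β4, TMSB4X, which sequesters actin monomers (-0.31, adjusted p = 4.41e-05).

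SRF and its 3 coactivators were all lower in senescence (3 of 4 when scaled to the other reference genes and 1 of 4 relative to ACTB). SRF fell by 0.60 ± 0.0587 from a mean of 80.8 CPM (adjusted p = 3.15e-09), MRTFA by 0.26 (adjusted p = 0.00105), MRTFB by 0.80 (adjusted p = 4.18e-08) and MYOCD, at under 7 CPM, by 0.61 (adjusted p = 0.000362). With siBDNF, where all 9 genes fell, 0 of the 4 passed in edgeR (3 were higher and 0 lower relative to ACTB), and SRF had a log2 fold change of 0.09 ± 0.0591 (adjusted p = 0.341). With siNTRK2 MYOCD fell by 0.52 (adjusted p = 0.00944) and MRTFB rose by 0.29 (adjusted p = 0.0257), against 0 lower and 1 higher of the 4 relative to ACTB.

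Over the 12 libraries, the genes outside the 9 whose log2 level followed ACTB most closely were RPL3, a ribosomal protein gene (Pearson's r = 0.992), GYG2 (0.991) and NIPSNAP1 (0.991), out of 9884 genes with a mean of at least 10 CPM. Those nearest to ACTA2 were its antisense gene ACTA2-AS1 (0.999), GSTM2 (0.995) and SLC2A1, the glucose transporter GLUT1 (0.993). Within the 9, ACTG2 and TAGLN had r = 0.987 and ACTB and ACTG1 r = 0.982, while CNN1 and TPM1 had r = -0.858 and ACTB and TPM2 r = 0.0453. The 12 points fall into 4 groups and share their normalization, so these values only describe the pattern of the group means.

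Several of the genes share exonic sequence with other annotated genes, and neither the strand setting of the counting nor its handling of overlaps is given in the sources used here. ACTA2-AS1, antisense to ACTA2, had counts of up to 43% of those of ACTA2 and changed alike, by -0.42 in senescence and -0.66 with siBDNF. FAS, on the opposite strand of ACTA2, had up to 50.1% of its counts but rose in senescence by 0.55. PCSK7, opposite TAGLN, had up to 45.3% of its counts and decreased by 0.23 in senescence and 0.39 with siBDNF. An antisense gene of TPM1, ENSG00000259627, reached 11.5%. A miRNA gene annotated within ACTB, AC006483.1, had up to 13% of the ACTB count, and AC139149.1 within ACTG1 up to 7.22%. Where strand was not used in the counting, reads of the opposite-strand partners and of the genes they overlap cannot be told apart. AC006483.1 and AC139149.1 lie on the same strand as ACTB and ACTG1, so strand would not separate their reads, whose assignment depends on how overlaps were handled. The 32 listed pseudogenes of ACTB and ACTG1 drew at most 0.0317% of the counts of the pair.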

How the data were processed

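RNA from 12 WI-38 libraries was prepared by the authors with a stranded poly(A) kit and sequenced in pairs, and the reads were trimmed with Cutadapt, aligned to hg19 (Ensembl annotation) with STAR 2.4.0j and counted per gene with featureCounts 1.6.4. The deposited values are raw counts per gene and library, used as deposited. Gene names for 55538 of 57773 genes, and transcript lengths, came from GENCODE on GRCh37.

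Counts were fitted with edgeR 4.0.16 in R 4.3.3 over all 12 libraries, with TMM factors, filterByExpr and 1 term per group. The quasi-likelihood test was adjusted with Benjamini-Hochberg over 21518 genes, and an adjusted p under 0.05 was called. The study itself used DESeq2 with that cut and an absolute log2 fold change over 1; DESeq2 1.42.0 served as an alternative. The procedure was checked beforehand on artificial counts. Promoters came from RefSeq (GRCh38.p14).

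The 9 genes and all gene lists were chosen with earlier results of these data known. Within a list, up to 3 increases and 3 decreases per comparison were named, by size, among called genes with a mean of at least 10 CPM; all reference, actin and SRF-list genes could be named. Precision was limited by 3 libraries per group, and 95% intervals were taken from the SE of the fit, without adjustment for the number of genes tested.

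Replicates of 1 group differed by more than counting noise (chi-square per gene 3.82 to 13.1). Deviations from the group means were not shared between libraries of equal number (18 pairs, correlations from -0.0396 to 0.027), so the numbers were not used as pairs. PECAM1 was not matched, and some listed genes are not reported here by name.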

Additional observations from a re-analysis of the deposited data

Results flagged for a closer look

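For 7 genes the effects of the silencings, each against the same siCtrl_Sen libraries, differed when siNTRK2_Sen was tested directly against siBDNF_Sen in edgeR. On the log2 scale siNTRK2_Sen was higher by 0.67 for ACTG2, by 0.45 for TAGLN, by 0.36 for MYL9 and by 0.33 for ACTA2. It was higher by 0.20 for TPM2, by 0.17 for TPM1 and by 0.16 for ACTB. All 3 siNTRK2_Sen libraries lay above all 3 siBDNF_Sen libraries for each of these genes. Of all tested genes 34.2% were without overlap in either direction, 8.84% were called higher and 7.86% lower. The call of ACTB was lost without certain single libraries. CD68 was lower by 1.21 and CALD1 higher by 0.53 in the same contrast, and their part in these differences was not tested.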

How the results depend on the processing

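The 9 genes in 4 comparisons kept direction and call with DESeq2, DESeq2 size factors, no low-count filter, a minimum of 10 counts per library, and the replicate block. That block, by library number, changed no call of the 9 genes, and gave 12487 called genes in senescence. With library totals 1 call was lost, with only the compared groups 2 (MYL9, at 0.13 in senescence and -0.13 with siNTRK2), and the other reference genes added 2. Leaving out 1 library changed 18 of 216 values, all named above with the libraries: 16 calls were lost and 2 gained. Members called then ranged from 2 to 3 higher and 6 to 6 lower in senescence, 4 to 7 lower with siNTRK2, 8 to 9 lower with siBDNF, and 6 to 7 higher between the silencings. All called genes ranged from 11565 to 12381 in senescence, 2943 to 4804 with siNTRK2 (the lowest without siCtrl_Sen library 1, 3010 without library 3), 2914 to 4651 with siBDNF (lowest without siBDNF_Sen library 2) and 2286 to 3249 between the silencings (lowest without siBDNF_Sen library 3). At the study's threshold they ranged from 3548 to 3758, 150 to 277, 87 to 150 and 170 to 281.

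Scaling to ACTB reversed ACTA2 (0.14) and TAGLN (0.25) in senescence, CNN1 (0.0479), TPM1 (0.13) and ACTG1 (0.0482) with siBDNF, and ACTG1 between the silencings (-0.15). On that scale 5 genes of the 9 were higher and 2 lower in senescence, 2 lower with siNTRK2, 5 lower with siBDNF, and 4 higher and 2 lower between the silencings. ACTB is fixed at 0 there, so that the shift follows from the construction. With siBDNF it gave 8367 called genes, 344 of them at the study's threshold, against 4413 and 131. The share of calls that were higher was 90.9% in senescence, 82.3% with siNTRK2, 97.6% with siBDNF and 9.17% between the silencings, against 51.3%, 52.5%, 50.5% and 52.9% with TMM. Library totals gave 69.3% with siBDNF and 37.8% between the silencings, and the other reference genes 68.6% in senescence and 38.1% between the silencings.

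The study's threshold was passed by 137 genes with siNTRK2 and 71 with siBDNF in DESeq2, against 206 and 131. Requiring 10 counts in every library left 1646, 91, 61 and 110 genes in the 4 comparisons, with 17028 genes tested. In senescence the 1646 genes were 835 higher and 811 lower, against 2494 higher and 1110 lower in the main fit. With 3 libraries a group, log2 changes of -0.10 (ACTB) and -0.11 (ACTG2) with siNTRK2 were not called. Calls of MYL9 (0.13 in senescence, -0.14 with siNTRK2), TPM1 (-0.13 with siBDNF) and ACTB (0.16 between the silencings) were lost without certain single libraries.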

Other observations

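Of the 9 fibroblast markers, 7 were called lower and 1 higher in senescence (4 and 3 relative to ACTB), with PDGFRB falling by 1.30 and COL3A1 by 1.13. Among all 21518 tested genes 28.3% were lower and 29.8% higher (1363 and 13637 genes relative to ACTB). With siNTRK2, where 5 of the 9 contractile genes fell, 5 markers rose and 1 fell, beside 11.1% and 10.0% of all tested genes. COL3A1 (0.52, adjusted p = 2.24e-09 in edgeR), LUM (0.52, adjusted p = 3.48e-08) and COL1A1 (0.38, adjusted p = 1.02e-05) were among those that rose. THY1 fell (-0.25, adjusted p = 9.71e-05). With siBDNF 6 fell and 1 rose (2 fell and 3 rose relative to ACTB), beside 10.2% and 10.3% of all tested genes. Among those that fell were the proteoglycan DCN (-0.64, adjusted p = 2.22e-10), THY1 (-0.54, adjusted p = 1.83e-09) and VIM (-0.29, adjusted p = 1.56e-05), and COL1A2 rose by 0.22.

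The 8 smooth-muscle markers, which include ACTG2 and CNN1, went both ways in senescence. Of these, 3 were called higher and 3 lower (4 and 1 relative to ACTB), beside 29.8% and 28.3% of all tested genes. SMTN, which encodes smoothelin, rose by 0.81 from 92.9 to 162 CPM (adjusted p = 7.64e-12 in edgeR). SYNM rose by 0.51 (adjusted p = 5.38e-06). LMOD1 dropped by 0.79 and MYOCD by 0.61, while MYH11 and DES were not called.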
